A study of Mus musculus with 18 samples.

Results

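The NF-kB and NFAT transcription factor genes of mouse were read here by their accessible chromatin in splenic B and T cells. The 9 genes were Rel, Rela, Relb, Nfkb1 and Nfkb2, which encode the NF-kB subunits, Nfkbia, which encodes their inhibitor, and Nfatc1, Nfatc2 and Nfatc3. Their members are all regions of the deposited table whose nearest end of a protein-coding gene, within 50 kb, belongs to 1 of these genes. That rule gave 42 of 27396 regions: 13 of Nfatc1, 9 of Nfkb1, 4 each of Nfkbia and Nfatc2, 3 each of Rel, Rela and Nfkb2, 2 of Nfatc3 and 1 of Relb. The rule used positions only, and all 42 regions passed the filter on low counts.

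NF-kB dimers wait in the cytoplasm, held by inhibitor proteins of the IkB family, until IKK kinases mark the inhibitor for destruction. Rela, Rel and p50, the processed product of Nfkb1, serve the canonical pathway, while Relb and p52, the processed product of Nfkb2, serve the non-canonical one, which in B cells is driven by the BAFF receptor and CD40. NFAT proteins are released by the calcium-dependent phosphatase calcineurin after antigen receptor signalling, in B cells as well as in T cells. NF-kB factors are also known to bind the promoters of several genes of their own system, Nfkbia, Nfkb2 and Rel among them.

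Chromatin was profiled by ATAC-seq, in which a transposase tags open DNA, on frozen sections of the spleen from C57BL/6J mice of wild-type genotype, with no treatment named in the labels. B and T cells were stained and cut out with a laser, either as 10 patches totalling about 1000 nuclei or as 100 single nuclei. There were 5 libraries each of B patches and of T patches, and 4 each of B and of T captures of 100 nuclei. Replicates were technical and no label ties a library to an animal, so every p-value below measures the spread between libraries only and is too small as a statement about mice.

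Patch libraries held 2193837 to 7343204 counts and libraries of 100 nuclei 319481 to 1076765. Mitochondrial counts are part of these totals. They took 18.8% to 33.6% in B patches and 16.1% to 23.1% in T patches. At 100 nuclei they took 29.4% to 45.8% in B and 24.3% to 33.6% in T. Patches had reads in 35 to 42 of the 42 regions, and 100 nuclei in 6 to 22. The shallowest patch libraries were number 2 of B and number 2 of T, with 36 and 35 member regions read. Libraries 3 and 4 of T 100 nuclei had reads in only 6 and 8 of them, so results at 100 nuclei rest on little. The labelled cell types were present: summed over 12 B cell marker genes, B patches gave 1380 to 1990 CPM (normalized counts per 1000000) and T patches 288 to 478. Summed over 12 T cell marker genes, for Cd4 had no region, B patches gave 281 to 379 CPM and T patches 1240 to 1520. Macrophage genes, of which Adgre1 and Csf1r (2 of 10) had a region and Lyz2, Cd14 and C1qa among others had none, summed to 117 to 203 CPM in B patches and 18 to 80.2 in T patches. Only 1 of these 2 genes had a positive log2 difference of B over T. It was Adgre1, at 1.97 ± 0.34 (SE, edgeR adjusted p = 0.00159), and Csf1r was not higher in B. Of the dendritic cell genes, Flt3, Siglech and Clec9a (3 of 7) had a region, and Itgax, Zbtb46, Xcr1 and Cd209a had none. The 3 genes summed to 114 to 183 CPM in B patches and 28.2 to 84.4 in T patches. All 3 had a positive log2 difference, and 0 had an edgeR adjusted p under 0.05, against 4.21% of all genes. The sums overlapped for NK cell genes (135 to 213 and 142 to 264), erythroid genes (25.2 to 66.9 and 8.0 to 67.3) and stroma genes (84.4 to 142 and 137 to 234). The 2 stroma genes with a region went opposite ways. Pecam1 was higher in T (log2 difference -1.15 ± 0.22, SE, edgeR adjusted p = 0.00375). Cdh5 was higher in B (2.34 ± 0.63, SE, edgeR adjusted p = 0.0403), a call lost in 8 of 10 fits with 1 library left out. In such bulk captures the share of a cell type and the accessibility per cell cannot be told apart. Of the nuclear counts, member regions took 0.241% ± 0.0228 in patches of B cells and 0.203% ± 0.0166 in those of T cells (SD over 5 libraries).

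The promoters below are shown because a member region lies over each and because the open DNA there can be set beside the known self-regulation of the system. Not all such windows are printed. The Nfatc3 window chr8:106059340-106059589, without a match to the kB string, lay wholly under a member region. The other windows of Nfkb2 lay wholly or partly under one. RefSeq windows of 250 bases before the transcription start (GRCm38.p6) were found for 6 of the 9 genes, 10 windows in all. Nfkb1, Relb and Nfatc1 had no entry. Capitals mark a match to GGGNNTTTC, the first bases of some but not all kB sites, on either strand.
Rel, chr11:23770970-23771219, minus strand: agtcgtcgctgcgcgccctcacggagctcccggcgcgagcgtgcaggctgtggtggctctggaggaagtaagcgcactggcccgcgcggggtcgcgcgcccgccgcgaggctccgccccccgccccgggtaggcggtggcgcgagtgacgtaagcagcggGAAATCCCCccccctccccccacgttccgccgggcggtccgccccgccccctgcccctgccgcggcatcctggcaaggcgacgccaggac
Nfkbia, chr12:55492648-55492897, minus strand: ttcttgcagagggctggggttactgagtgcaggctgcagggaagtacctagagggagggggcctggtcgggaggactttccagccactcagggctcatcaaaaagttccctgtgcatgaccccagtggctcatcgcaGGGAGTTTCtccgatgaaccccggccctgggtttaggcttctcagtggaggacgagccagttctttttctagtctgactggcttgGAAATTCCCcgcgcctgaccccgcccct
Rela, chr19:5637291-5637540, plus strand: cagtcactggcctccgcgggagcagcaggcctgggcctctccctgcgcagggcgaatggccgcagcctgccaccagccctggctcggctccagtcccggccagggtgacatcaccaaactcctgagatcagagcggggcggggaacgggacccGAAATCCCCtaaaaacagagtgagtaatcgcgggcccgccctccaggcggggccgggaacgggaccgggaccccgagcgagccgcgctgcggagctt
Nfkb2, chr19:46304487-46304736, plus strand: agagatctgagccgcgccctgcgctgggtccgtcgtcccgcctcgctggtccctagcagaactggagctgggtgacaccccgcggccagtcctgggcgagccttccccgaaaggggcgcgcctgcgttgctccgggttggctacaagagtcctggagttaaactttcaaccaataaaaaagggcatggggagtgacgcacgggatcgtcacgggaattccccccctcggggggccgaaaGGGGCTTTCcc
Nfatc2, chr2:168590366-168590615, minus strand: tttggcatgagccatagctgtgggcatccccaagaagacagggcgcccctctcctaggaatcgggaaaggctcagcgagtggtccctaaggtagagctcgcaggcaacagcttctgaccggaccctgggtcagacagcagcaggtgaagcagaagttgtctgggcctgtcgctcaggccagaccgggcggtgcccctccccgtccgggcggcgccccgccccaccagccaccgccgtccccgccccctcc

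The match in Rel lay at bases -90 to -82 from the start, that in Rela at -97 to -89 and that in Nfkb2 at -11 to -3. Nfkbia had matches at -113 to -105 and at -28 to -20, and the window of Nfatc2 none. GGGNNTTTC was found in 6 of the 10 windows, 1 each of Rel, Rela and Nfkbia and all 3 of Nfkb2, against 3.72% of all 32851 windows of this length. The looser GGGNNNTTC, which includes it, was found in the same 6 windows and in 11.8% of all. In the printed Nfkb2 window the looser string also matched at -37 to -29, left there in lower case. TGGAAA, the core that NFAT proteins bind, was in 3 windows and in 18.6% of all. These were the Nfkbia window, where it overlapped a match of the kB string, and windows of Nfatc2 and Nfkb2 at other starts that are not printed. All 3 strings were searched on both strands. They were chosen with earlier results known and shortened after a first search, so these shares are not a test of enrichment. The 10 windows held 49.6% to 77.6% G and C, against a median of 52.4% over all windows. The windows of Rel, Rela and Nfkb2 printed here lay wholly under a member region, that of Nfkbia by 187 of its 250 bases and that of Nfatc2 by 248. Such matches are letters in a window and not sites, and binding was not measured.

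In patches 1 of the 42 regions, inside Nfatc1, passed the test between B and T. By edgeR's quasi-likelihood test with Benjamini-Hochberg adjustment over 25712 regions (threshold 0.05), 1 of 42 member regions (2.38%) was called, higher in B, against 2.27% of all regions (583, of which 1.22% of all regions were higher in B). The B and T libraries did not overlap at 4 members (9.52%), against 8.03% of all regions, and at each of the 4 the B libraries were the higher, as at 4.33% of all regions. At an unadjusted p under 0.05 there were 4 members (9.52%), against 12.7%. Apart from the count by direction, these shares are near the background. The log2 fold change of B over T was positive at 26 regions and negative at 16, with a median of 0.22 against -0.03 over all regions. Of all regions 48.7% were positive. Scaled by library size alone, which moved the median of all regions by -0.16, the split was 22 and 20 and the median 0.04. Of all regions 40.1% were then positive. That library size includes the mitochondrial counts, 18.8% to 33.6% of B patch libraries and 16.1% to 23.1% of T patch libraries. Their part in the shift was not tested. The median size of the difference, without its sign, was 0.41 in the members and 0.57 in all regions.

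**Figure D1:**
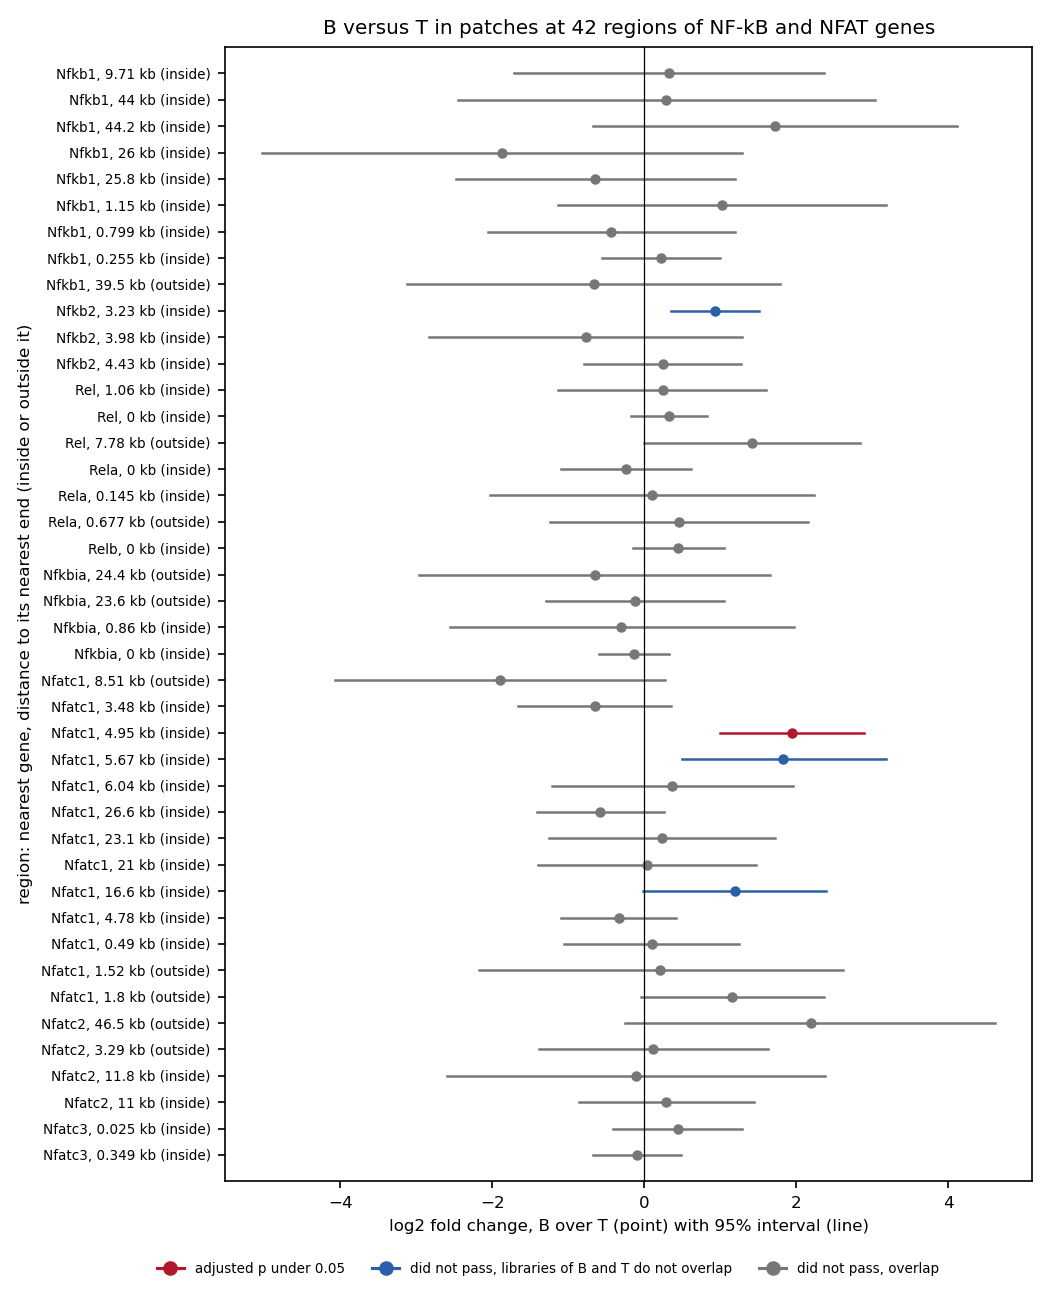
Fold change of B over T patches (log2, x axis) with its 95% interval at each of the 42 regions, labelled by gene and distance to the nearest gene end (y axis). The 1 called region, of Nfatc1, is red, the other 3 whose libraries did not overlap are blue, and 38 of the 42 intervals include 0.

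Among the NF-kB subunits, 0 of 19 regions passed the test, against 2.27% of all regions. There were 13 positive and 6 negative fold changes, with a median of 0.24, and 48.7% of all regions were positive. The region that came nearest was the promoter of Nfkb2, the precursor of p52. This region, chr19:46304224-46304770, covered the Nfkb2 start printed above, 3.23 kb inside the gene as the table bounds it. Its normalized CPM were 84.7, 129.3, 140.0, 113.5 and 123.3 in B patches 1 to 5 and 61.74, 34.4, 73.02, 70.07 and 70.36 in T patches 1 to 5. Every B library lay above every T library. The means were 118.2 ± 21.04 and 61.92 ± 15.95 CPM (SD, n = 5 each), and the log2 difference was 0.93 ± 0.28 (SE; 95% interval 0.35 to 1.51; edgeR adjusted p = 0.0900). It therefore missed the threshold, and it passed with DESeq2, an alternative test (adjusted p = 0.00374). DESeq2 called more regions in patches, 2102 of 25712 against 583 by edgeR, and 3 of the 42 members. The macrophage and dendritic cell marker sums given above were higher in the same B patches, the macrophage sum through Adgre1 and not Csf1r. Their part in the Nfkb2 result was not tested. The other 2 regions of Nfkb2 had log2 differences of 0.24 ± 0.50 and -0.77 ± 0.99 (SE).

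Relb, the partner of p52, had the most open of the regions nearest a gene end, chr7:19628423-19629606, which lies over an end of the gene. Per kilobase of region its mean level was 310 CPM in B patches and 227 in T patches. Its libraries held 342.4, 211.9, 473, 417.2 and 387 CPM in B patches 1 to 5 and 274.3, 122.4, 365.4, 188.8 and 391.2 in T patches 1 to 5. The groups overlapped, with the number 2 library the lowest in each. The log2 difference was 0.45 ± 0.29 (SE; interval -0.15 to 1.05; edgeR adjusted p = 0.620).

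Rel encodes c-Rel, a subunit prominent in lymphocytes. Its promoter region, chr11:23770584-23771572, held 173, 155.2, 277.4, 184.8 and 211.5 CPM in B patches 1 to 5 and 121.5, 159.6, 134.4, 214.9 and 172.1 in T patches 1 to 5. The groups overlapped and the log2 difference was 0.32 ± 0.24 (SE; interval -0.18 to 0.82; edgeR adjusted p = 0.718), so that a difference above 1 on the log2 scale in either direction lies outside the interval. A second region of Rel, 7.78 kb outside the gene at chr11:23778745-23779034, had the lowest adjusted p among the 30 regions that the rule for single description leaves out (log2 difference 1.42 ± 0.68, SE; edgeR adjusted p = 0.391), and B patch 2 was there at 1.826 CPM against 23.79 to 60.97 in the other B patches.

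Rela encodes p65, the main activating subunit of the canonical pathway. Its promoter region, chr19:5637111-5637580, held 35.55, 33.97, 49.32, 22.43 and 42.79 CPM in B patches 1 to 5 and 37.45, 22.4, 66.03, 62.34 and 28.76 in T patches 1 to 5. The groups overlapped, with a log2 difference of -0.24 ± 0.41 (SE; interval -1.09 to 0.61; edgeR adjusted p = 0.936). For Nfkb1, the precursor of p50, the region nearest an end was chr3:135691313-135691714, 0.255 kb inside the gene, and it held 69.16, 67.58, 66.59, 40.15 and 55.35 CPM in B patches 1 to 5 and 48.59, 16.4, 60.76, 79.79 and 49.56 in T patches 1 to 5. B patch 4 was the lowest of its group and T patch 2 far below the rest. The log2 difference was 0.22 ± 0.37 (SE; interval -0.55 to 1.0; edgeR adjusted p = 0.931), and it turned to -0.04 with both number 2 libraries left out.

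Nfkbia encodes IkB alpha, the inhibitor that NF-kB itself induces. None of its 4 regions passed, against 2.27% of all regions, and all 4 fold changes were negative, with a median of -0.22. Its promoter region, chr12:55491817-55492834, carries the kB string printed above and was the steadiest between libraries of the regions over an end of a gene. It held 176.6, 144.7, 176.5, 138 and 172.2 CPM in B patches 1 to 5 and 155.1, 200.4, 181.5, 151.4 and 198.9 in T patches 1 to 5. Those are coefficients of variation of 11.6% and 13.2%, and the groups overlapped. The means, 161.6 ± 18.72 and 177.5 ± 23.36 CPM (SD, n = 5 each), gave a log2 difference of -0.13 ± 0.22 (SE; interval -0.59 to 0.32; edgeR adjusted p = 0.929). This was 1 of the 3 member regions whose whole interval lay within 1 log2 unit of 0, with Rel above and the second region of Nfatc3.

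**Figure D2:**
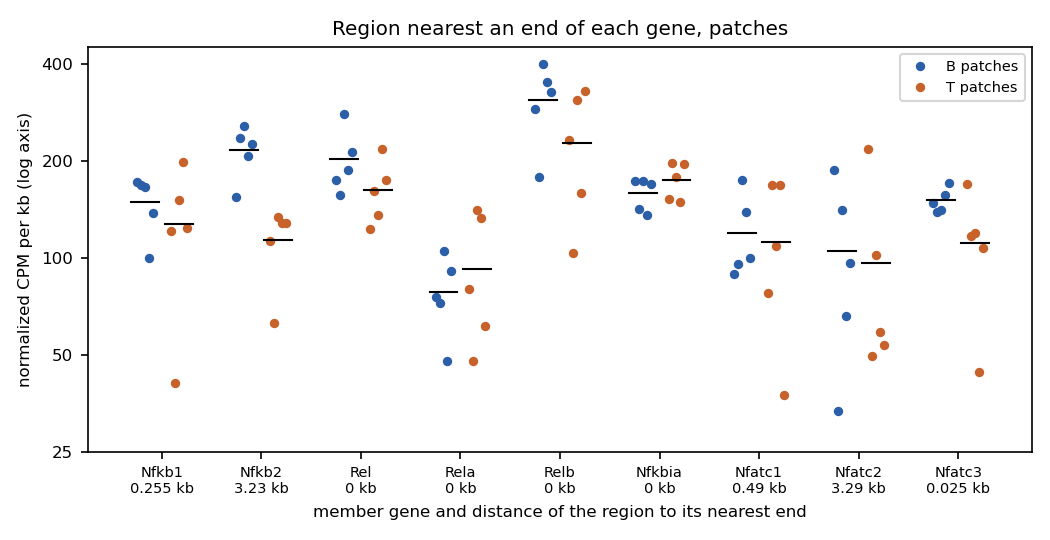
Normalized CPM per kilobase (log axis) in each patch library at the region nearest an end of each of the 9 genes, with the distance to that end (x axis). Points are libraries, 5 per group, and lines are group means; Nfkb2 is the gene whose B and T points do not overlap, and Nfkbia has the narrowest spread of the pooled points.

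Of the 19 regions of the NFAT genes 1 passed the test (5.26%, against 2.27% of all regions), and 3 had libraries that did not overlap (15.8%, against 8.03%), all inside Nfatc1. Nfatc1 encodes NFATc1, also called NFAT2, which antigen receptor signals induce in lymphocytes. The called region, chr18:80611155-80611495, lay 4.95 kb inside the gene from its lower-coordinate end. Its CPM were 80.96, 59.91, 52.23, 94.67 and 61.96 in B patches and 4.049, 17.2, 22.01, 33.41 and 13.94 in T patches. Every B library was above every T library, and T patch 1 was the lowest. The means were 69.94 ± 17.4 and 18.12 ± 10.79 CPM (SD, n = 5 each), that is 206 and 53.3 CPM per kilobase. The log2 difference was 1.95 ± 0.46 (SE; interval 1.0 to 2.89; edgeR adjusted p = 0.0269). Leaving out 1 library kept the difference between 1.69 and 2.28, but the call was lost without B patch 1 (adjusted p = 0.0777), 4 (0.0896) or 5 (0.0521), or without T patch 3 (0.0584) or 5 (0.0666). With both number 2 libraries left out it held (1.98, adjusted p = 0.0182). It was also lost with the replicate number as a block, and in a joint fit of all 18 libraries (1.85, adjusted p = 1.0). The macrophage and dendritic cell marker sums were higher in B patches here as well, and their part was not tested.

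A second Nfatc1 region, chr18:80611878-80612186, lay close by, 5.67 kb from the same end. B patches gave 56.91, 35.8, 44.74, 51.82 and 47.42 CPM and T patches 15.44, 1.6, 29.52, 1.247 and 17.92. The groups did not overlap, and T patches 2 and 4 were near 0. The log2 difference was 1.83 ± 0.65 (SE; interval 0.49 to 3.18; edgeR adjusted p = 0.168). DESeq2, which called more of all regions as given above, called it (adjusted p = 0.0279). The next region along, 6.04 kb from the end, had a log2 difference of 0.37 ± 0.76 (SE).

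Another region without overlap, chr18:80696394-80696517, lay 16.6 kb inside Nfatc1 from its other end. B patches gave 21.21, 29.95, 26.63, 43.3 and 19.99 CPM and T patches 18.47, 4.8, 10.94, 16.21 and 11.28. The lowest B and the highest T library were close together, and the log2 difference was 1.19 ± 0.58 (SE; interval -0.02 to 2.39; edgeR adjusted p = 0.406). Of the 13 Nfatc1 regions 9 had a positive and 4 a negative difference. The region nearest an end, chr18:80712386-80712581, 0.49 kb inside the gene, held 17.33, 18.63, 34.13, 27.14 and 19.5 CPM in B patches 1 to 5 and 15.18, 32.8, 21.22, 32.91 and 7.301 in T patches 1 to 5. The groups overlapped there (log2 difference 0.10 ± 0.55, SE; interval -1.06 to 1.25; edgeR adjusted p = 0.986), and the difference was -0.11 when scaled by library size alone.

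**Figure D3:**
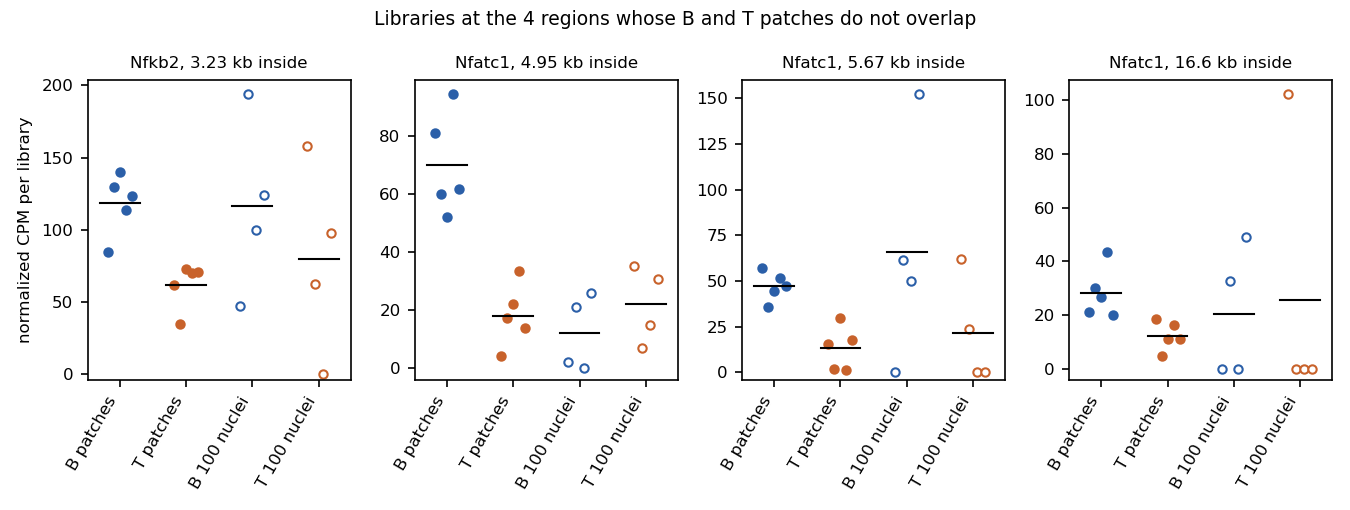
Normalized CPM (y axis, linear) in each of the 18 libraries at the 4 regions whose B and T patches did not overlap, 1 panel per region. Points are libraries and lines group means; in patches all B points lie above all T points, while at 100 nuclei the groups overlap in each panel.

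The regions whose patch values ran most like the called Nfatc1 region belonged to Fcrl5, Dexi and Irgc1. Pearson's r of log2 CPM over the 10 patch libraries was 0.978 at chr3:87506541-87506788, 5.86 kb outside Fcrl5, an Fc receptor-like gene of B cells. It was 0.967 at chr16:10515907-10516543, 13.7 kb outside Dexi, and 0.965 at chr7:24442471-24442653, 3.03 kb inside Irgc1. They were the 3 highest of 12043 regions of at least median abundance, and share with it the same libraries and the same split between B and T.

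Nfatc2 encodes NFATc2, also called NFAT1, which is present in resting T cells. None of its 4 regions passed, against 2.27% of all regions. Nearest an end was chr2:168472964-168473117, 3.29 kb outside the gene, which held 28.68, 5.114, 21.64, 10.09 and 14.71 CPM in B patches 1 to 5 and 33.4, 7.6, 15.68, 8.977 and 8.186 in T patches 1 to 5. The groups overlapped, and the log2 difference was 0.12 ± 0.72 (SE; interval -1.38 to 1.63; edgeR adjusted p = 0.986) or -0.05 scaled by library size alone. The region over the promoter printed above, chr2:168590250-168590613, gave 51.53, 60.27, 33.09, 14.58 and 23.13 CPM in B and 40.49, 4.8, 40.99, 14.21 and 47.79 in T. These overlapped widely as well (log2 difference 0.29 ± 0.55, SE; edgeR adjusted p = 0.945). The largest positive difference among all members, 2.19 ± 1.17 (SE), was at a thin Nfatc2 region 46.5 kb outside the gene, with a mean of 12.43 CPM in B and 2.695 in T (edgeR adjusted p = 0.480).

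Nfatc3 encodes NFATc3, the remaining NFAT member here. Its region nearest an end, chr8:106058843-106059124, 0.025 kb inside the gene, held 41.68, 39.09, 39.54, 44.19 and 48.08 CPM in B patches 1 to 5 and 47.57, 32.8, 33.61, 12.47 and 30.09 in T patches 1 to 5. The B libraries were close together, at a coefficient of variation of 8.73%, and the T libraries wider apart (40.0%), with T patch 4 the lowest. The groups overlapped, and the log2 difference was 0.44 ± 0.41 (SE; interval -0.41 to 1.29; edgeR adjusted p = 0.805). Its second region, chr8:106059167-106059863, over another start, had means of 161.2 ± 51.52 and 172.8 ± 46.2 CPM (SD, n = 5 each) and a log2 difference of -0.10 ± 0.28 (SE; interval -0.68 to 0.48; edgeR adjusted p = 0.966).

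The 12 regions given in full above are those called, those without overlap and the one nearest an end of each gene. The other 30 are summarised here, and those of them named above were picked after their values were seen. Their log2 differences ran from -1.90 to 2.19 with edgeR adjusted p from 0.391 to 0.994, 16 positive and 14 negative, and the interval included 0 at 29 of the 30, the exception being the Rel region 7.78 kb outside its gene, whose lower limit was just above 0 (unadjusted p = 0.0494). The median width of the interval over all 42 was 2.86 log2 units, and at 39 of the 42 it reached beyond 1 log2 unit from 0.

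Members near a gene end were on the whole longer, more open and steadier between libraries than those far from one, as was the case over all regions. The 12 regions within 1 kb of an end, from 7 genes, had a median length of 348 bp, 124 CPM per kilobase and a median coefficient of variation of 29.0% in B and 45.4% in T patches. The 30 others had medians of 154 bp, 92.4 CPM per kilobase and 55.5% and 62.5%. Among all regions, those within 1 kb had medians of 308 bp, 83.5 CPM per kilobase and 48.5% and 51.8%. Those farther off, within 50 kb, had 173 bp, 69.3 CPM per kilobase and 64.2% and 69.8%. None of the 12 was called and none was without overlap, against 1 (3.33%) and 4 (13.3%) of the 30. Over all regions, 0.649% of 12027 regions within 1 kb were called and 3.56% of 10666 farther ones, and 2.86% and 12.2% were without overlap, so the members' counts are near these shares. The median size of the difference was 0.27 and 0.65 on the log2 scale in the members, and 0.38 and 0.80 in all regions.

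Summed over all its regions, no gene of the 9 passed the test, against 4.21% of 11128 genes (468). The sums of 1 gene did not overlap, against 7.49% of all genes (3.95% with B higher). That gene was Nfkb2, with 162.6, 168.5, 186.9, 163.1 and 197.0 CPM in B patches and 145.0, 44.2, 129.1, 142.0 and 134.5 in T patches. T patch 2 was far below the others. The log2 difference was 0.56 ± 0.26 (SE; interval 0.02 to 1.10; unadjusted p = 0.0434; edgeR adjusted p = 0.322). Differences were 0.47 ± 0.25 for Relb, 0.43 ± 0.37 for Nfatc2, 0.42 ± 0.22 for Rel, 0.35 ± 0.19 for Nfatc1, 0.15 ± 0.26 for Nfkb1 and 0.06 ± 0.34 for Rela (SE). Nfatc3 was at 0.00 ± 0.22 and Nfkbia at -0.16 ± 0.18. The median of the 9 was 0.35, against -0.03 over all genes. The called region of Nfatc1 thus stood in a gene whose sum did not pass (edgeR adjusted p = 0.465).

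**Figure D4:**
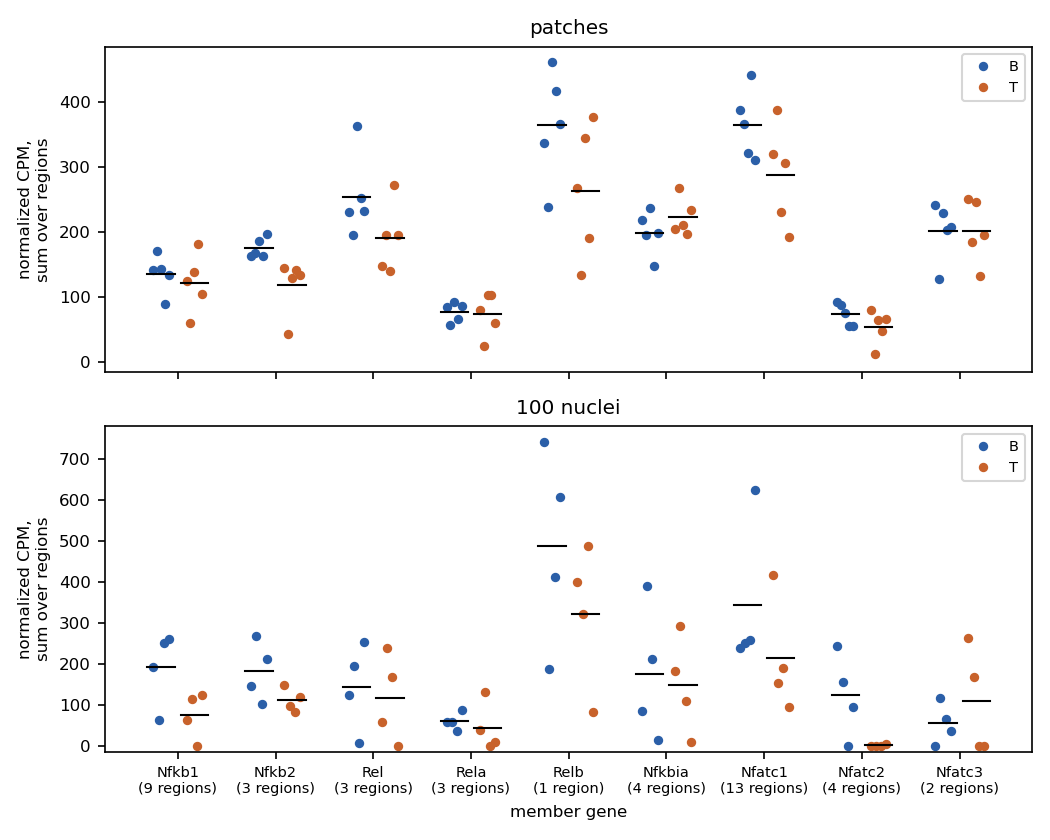
Normalized CPM summed over the regions of each of the 9 genes (x axis, with the number of regions) in patches (upper panel) and at 100 nuclei (lower panel). Points are libraries and lines group means; in patches only the sums of Nfkb2 do not overlap, and at 100 nuclei the sums of Nfatc2 are at or near 0 in the T libraries.

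The genes that act on these factors were read from 3 lists of 66 genes, 61 of them with 197 regions, and 1 region passed (0.508%, against 2.27% of all regions). Of the other inhibitors and IkB proteins, 0 of 35 regions in 11 genes were called, with a median log2 difference of -0.01, and 2 (5.71%) had libraries without overlap, against 8.03% of all regions. Of the IKK complex and its upstream signalling genes, 0 of 83 regions in 22 genes were called, with a median of -0.16, and 12 (14.5%) had libraries without overlap. Of the calcium, calcineurin and NFAT regulators, 1 of 79 regions in 28 genes was called, higher in T, with a median of -0.17, and 3 (3.80%) had libraries without overlap. It belonged to Itpr2, an IP3 receptor that releases calcium from the endoplasmic reticulum, and lay 27.0 kb outside that gene at chr6:146081077-146081336. Its mean was 8.785 ± 8.087 CPM in B cells, against 53.68 ± 25.21 CPM in T cells (SD over 5 libraries; log2 difference -2.63 ± 0.66, SE; edgeR adjusted p = 0.0387). Leaving out 1 library ended the call for 8 of the 10 libraries, all but B patch 2 and T patch 4, with an adjusted p of up to 0.110.

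Summed by gene, 2 of these 61 genes passed (3.28%, against 4.21% of all genes). Both are of the IKK and upstream list, and they are named after their values were seen. Prkcq, the protein kinase C theta that links the T cell receptor to NF-kB, was higher in T: its 11 regions summed to 50.7 to 94.87 CPM in B patches and 238.8 to 478.7 in T patches. The groups lay far apart, with a log2 difference of -2.12 ± 0.24 (SE; edgeR adjusted p = 3.4e-05), and the call held in each fit with 1 library left out (adjusted p at most 0.000285). Birc3, the ubiquitin ligase cIAP2, was higher in B: its 2 regions summed to 235.7 ± 64.52 and 135.7 ± 27.47 CPM (SD, n = 5 each; log2 difference 0.80 ± 0.22, SE; edgeR adjusted p = 0.0453). Its call was lost in 9 of 10 fits with 1 library left out, all but the one without B patch 5, with an adjusted p of up to 0.131. Neither of them is a factor gene, and the 9 factor genes gave no sum that passed.

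At 100 nuclei the member regions were mostly empty in single libraries, and none was called. By edgeR's test 0 of 42 passed, against 0.0156% of all regions (4, all on the mitochondrial chromosome), and 2 were at an unadjusted p under 0.05 (5.50% of all regions were); DESeq2 called 0 regions of 25712. Of the 42 regions, 26 had reads in both B and T libraries, 10 in B only, 5 in T only and 1 in neither. There were 20 regions with reads in 1 or 2 of the 8 libraries and 6 with reads in 6 or more. More B than T libraries had reads at 22 regions (52.4%, against 43.0% of all regions) and more T than B at 7 (16.7%, against 23.1%). T libraries 3 and 4, with reads in 14.4% and 12.0% of all regions, fall in the T group. The median interval was 13.71 log2 units wide, and it lay within 1 log2 unit of 0 at none of the members.

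The called Nfatc1 region held few counts here, and its B libraries did not stand above its T libraries. Its counts were 1, 11, 0 and 10 in B libraries 1 to 4 and 29, 6, 15 and 23 in T libraries 1 to 4. The groups overlapped, with a log2 difference of -0.84 ± 3.49 (SE; edgeR adjusted p = 1.0). The difference between capture sizes was 2.72 ± 1.97 (SE; edgeR adjusted p = 0.450), so a difference between the sizes was not detectable at this depth. At the second Nfatc1 region the counts were 0, 32, 30 and 59 in B and 51, 20, 0 and 0 in T, and at the one 16.6 kb inside the gene 0, 17, 0 and 19 in B and 84, 0, 0 and 0 in T. The Nfkb2 promoter region was better covered, with 24, 101, 60 and 48 counts in B and 130, 53, 0 and 73 in T, and the groups overlapped (log2 difference 0.54 ± 1.93, SE; edgeR adjusted p = 1.0).

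Coverage of the regions over a promoter or gene end varied. The Relb region was read in all 8, with 395, 100, 241 and 257 counts in B and 351, 295, 456 and 51 in T. The Nfkbia promoter was also read in all 8, with 42, 186, 80 and 6 counts in B and 148, 223, 103 and 6 in T. The Rel promoter held 64, 103, 3 and 69 counts in B and 51, 149, 156 and 0 in T. In each of these 3 the groups overlapped. The Rela promoter was read in 2 B libraries and 1 T library, with 31, 0, 21 and 0 counts in B and 0, 0, 0 and 5 in T.

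Nfatc2 was read mainly in B libraries at this capture size. Its promoter region held 130, 35, 0 and 0 counts in the B libraries and 0 in each of the 4 T libraries. Its 4 regions together gave 244.5, 154.2, 0 and 94.54 CPM in B and 0, 0, 0 and 4.846 in T. The B libraries 1, 2 and 4 were above all T libraries and B library 3 was at 0. By gene, the unadjusted edgeR p was 0.0323, and 5.86% of all genes were under 0.05. The edgeR adjusted p was 0.602, with 0 of the 9 genes called against 0.00899% of all genes (1). At this size more B than T libraries had reads at 43.0% of all regions, and more T than B at 23.1%. In patches the same promoter region was read in all 10 libraries.

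Across capture sizes the difference between B and T was compared by an interaction term, which passed at 0 of 42 members and 0.0% of all 25712 regions by edgeR's test. At an unadjusted p under 0.05 there were 11 of the 42 (26.2%), against 27.1% of all regions. In each of the 11 regions, B or T held 0 or 1 counts in all over its 4 libraries of 100 nuclei, and no member is put forward from that test.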

How the data were processed

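The authors deposited 1 table of raw whole-number counts for 27396 regions of build mm10 in 18 libraries, each column matched to a sample by its name in the labels. Per the submitters' processing notes, the tools were Bowtie2 2.4.5, MACS2 2.2.7.1, SAMtools 1.14, Trimmomatic 0.36, deepTools 3.5.2, bcl2fastq 2.20, Picard and R 4.1.0. The calling of regions, the treatment of duplicates, any shift for the transposase and the base from which starts count were not given in the sources used here. Counts carried no stated molecular identifiers, so intervals cover the spread between libraries and not molecules.

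Regions were assigned to the nearest end of a protein-coding gene within 50 kb (RefSeq, GRCm38.p6, whose coordinates are those of mm10); 86.7% had one. The table gives neither strand nor exons, so exonic and intronic positions are not stated. Counts were tested in R 4.3.3 with edgeR 4.0.16: TMM scaling, a low-count filter (filterByExpr over the 4 groups, minimum 10), quasi-likelihood F-tests, and p-values adjusted by Benjamini-Hochberg over all 25712 regions or 11128 genes at 0.05. Each capture size was fitted on its own groups. A standard error is the size of the log2 fold change over the root of its F statistic, and intervals are 95%. Normalized CPM are counts per 1000000 of the library total times its TMM factor, given as mean ± SD. Library totals ran from 319481 to 7343204. The fits were also run on simulated counts with known changes, placed in features of at least median abundance. Libraries were drawn independently there. Those runs therefore cannot speak to libraries that share an animal, or to changes at features below that abundance.

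Regions described singly were those called, those whose patch groups did not overlap and, for each gene, the one nearest a gene end; from the other lists, genes with a called region. The members, the lists, the markers and the 3 searched strings were chosen with earlier results of these data known, and the strings were shortened after a first search. Library numbers were checked as pairs: same-numbered libraries deviated together with correlations of -0.00718 to 0.0332 in patches and -0.0138 to 0.0186 at 100 nuclei. The highest was that of number 2 in patches, the shallowest library of each cell type. Correlations near 0 cannot exclude a shared animal, day or batch, which the labels do not give. Alternatives were DESeq2 1.42.0, other scalings, no filter, no mitochondrial regions, a joint fit, a block, a 10 kb distance and each library left out.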

Additional observations from a re-analysis of the deposited data

Results flagged for a closer look

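In 6 of 47 groups of libraries at the regions described singly, 1 library stood apart from the others of its group. A chance rate of about 1 group in 20 does not apply to groups of mostly empty libraries, so the count is not read against it. All 6 were at 100 nuclei, and in each the other libraries of the group held no reads at that region. At the Nfkb1 region starting at 135691313 on chromosome 3, T library 2 was at 50.8 normalized CPM. At the Rela promoter region, T library 4 was at 6.70 CPM. At the Nfatc1 region starting at 80696394 on chromosome 18, T library 1 was at 102 CPM. At the Nfatc1 region starting at 80712386, B library 2 was at 104 CPM and T library 1 at 18.3. At the Nfatc2 region starting at 168472964 on chromosome 2, B library 4 was at 41.4 CPM.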

How the results depend on the processing

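Of the 12 regions described singly, the called Nfatc1 region kept its direction under every alternative run, and passed or missed the threshold as given in the report. In patches, regions called went from 583 to 2102 with DESeq2, 0 in the joint fit and 1156 with both number 2 libraries left out (an alternative chosen after seeing the data), and lay between 259 and 673 with 1 library left out. Genes called went from 468 to 791, 0 and 753, and between 322 and 537. Member regions called went from 1 to 3 with DESeq2 and 0 in the joint fit, and between 0 and 1 with 1 library left out. At 100 nuclei, regions called went from 4 to 0 with DESeq2 or without mitochondrial regions and to 6954 in the joint fit, between 2 and 4 with 1 library left out. Genes called went from 1 to 0 by library size alone, 88 with DESeq2, 1311 in the joint fit and 7 without T libraries 3 and 4 (chosen after seeing the data), between 0 and 1 with 1 library left out. Member regions called at 100 nuclei went from 0 to 13 in the joint fit, whose single spread is shared by captures of both sizes. The interaction went from 0 to 2 regions with DESeq2 size factors, 3199 with DESeq2, and up to 419 without T library 1 of 100 nuclei (between 0 and 419). The cause was not tested in these cases. With library size alone, calls in patches were 39.3% higher in B, against 53.9%. The library size includes the mitochondrial counts, whose shares in B and T patches are given in the report.

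With the replicate number as a block, calls in patches fell to 215 regions and 368 genes, member regions called to 0 (Nfatc1 2.13, edgeR adjusted p = 0.0625), and at 100 nuclei to 0 regions and 0 genes. Correlations between same-numbered libraries were near 0, but the labels do not say what the numbers stand for. What lowered the calls was not tested.

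Signs that turned were all at regions far from the threshold: Nfkb1 at -0.04 with both number 2 libraries left out (-0.02 to 0.44 with 1 left out), Nfatc1 at 80712386 at -0.11 by library size alone and -0.01 in the joint fit (-0.13 to 0.29), and Nfatc2 at 168472964 at -0.05 by library size alone (-0.19 to 0.66). At 100 nuclei, 20 of 42 regions had reads in 1 or 2 of 8 libraries.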
